A study of Mus musculus with 56 samples.

Results

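The proteasome genes described here are the gene symbols that begin with Psm, a letter from a to g and a digit, and they cover the subunits, activators and assembly chaperones of the proteasome. The deposited tables hold 50 such symbols. Of these, 45 had at least 10 counts in experiment 1, out of 19791 symbols, and 49 had at least 10 counts in experiment 2, out of 24421 symbols, and 45 met the minimum in both. They were chosen by name and not by how they moved. One of them, Psmc3ip, encodes a recombination factor that binds an ATPase subunit and is no subunit itself, and Psme2b is a near copy of Psme2, so that its counts are uncertain.

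The study asked whether the density at which CD4 T cells are cultured bears on how they become memory cells. All 56 libraries (19 groups) hold CD4 T cells from the spleen of C57BL/6 mice, sequenced as 3′ transcript ends. All activated cells received beads with antibodies to CD3 and CD28 and no added cytokine. The age and sex of the animals are not in the labels, nor is it stated whether the libraries of a group came from separate mice or cultures. The p-values therefore cover no more than the spread from library to library, which may be technical. Levels are CPM, counts scaled to the size of each library after TMM normalisation, and the 2 tables were normalised separately.

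Experiment 1 holds 6 groups of 3 libraries. Its unactivated cells were enriched on magnetic columns as naive (CD4+CD44-CD62L+) or mature (CD4+CD44+CD62L-) cells. Its activated cells were cultured in 96-well plates from 250000 cells per ml. They were split by sorting into CD62L positive and CD62L negative cells after 48 or 72 h, where CD62L is the lymph node homing receptor that naive and central memory T cells carry. Experiment 2 holds 13 groups. These are sorted naive cells (CD4+CD44-CD62L+), CD4+ cells taken at 18, 30, 48 and 72 h from cultures of 1 ml started at 1000000 cells per ml (high concentration) or 62500 cells per ml (low concentration), and CD44+ cells from a starting density of 250000 per ml, split by CD62L after 48 or 72 h. Low cultures at 72 h have 2 libraries and every other group has 3. Library titles of experiment 2 carry a second number, 1 or 2, and what it stands for is not stated in the labels. It is 1 in all naive and 18 h libraries and 2 in all 30 h libraries. At 48 h it is 2 in the 3 high libraries and in low replicate 1, but 1 in low replicates 2 and 3. At 72 h it is 1 in the high and 2 in the low cultures, so that at this time the number and the concentration cannot be told apart.

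The proteasome degrades proteins tagged with ubiquitin. Its barrel is built of rings of alpha and beta subunits, and 3 of the beta subunits, Psmb5, Psmb6 and Psmb7, carry the proteolytic sites. A regulatory cap of ATPases (Psmc genes) and non-ATPase subunits (Psmd genes) recognises, unfolds and feeds in the substrate. Interferon gamma is known to induce replacements for the catalytic subunits, Psmb8 in the place of Psmb5, Psmb9 in the place of Psmb6 and Psmb10 in the place of Psmb7, together with the PA28 activator subunits Psme1 and Psme2. Lymphocytes are known to carry much of this immunoproteasome without infection, and it shapes the peptides that are loaded on MHC class I molecules.

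Promoter sequences are shown for immune and constitutive catalytic genes because these groups moved in opposite directions in the data below. They are the 250 bases upstream of the RefSeq start site (build GRCm38.p6, 5′ to 3′ on the strand of the gene), which was found for 41 of the 49 members. Psmb8 lies at chr17:34197945-34198194 on the plus strand, Psmb5 at chr14:54617996-54618245 on the minus strand and Psmb6 at chr11:70525107-70525356 on the plus strand. Psmb9 and the peptide transporter gene Tap1 start head to head, and the 225 bases between their start sites are given on the strand of Psmb9 (minus), at chr17:34187331-34187555. Capitals mark a match to TTCNNNGAA, the core of the gamma-activated site, in Psmb8 (97 bases before the start site), and to TGACNNNGC, the core of the antioxidant response element, in Psmb5 (47 bases) and Psmb6 (9 bases).
Psmb8: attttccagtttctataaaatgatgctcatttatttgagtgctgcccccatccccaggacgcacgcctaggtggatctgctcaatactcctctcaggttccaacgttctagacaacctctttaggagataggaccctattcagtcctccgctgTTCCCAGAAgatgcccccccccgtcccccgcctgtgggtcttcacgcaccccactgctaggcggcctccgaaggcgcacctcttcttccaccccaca
Psmb9 to Tap1: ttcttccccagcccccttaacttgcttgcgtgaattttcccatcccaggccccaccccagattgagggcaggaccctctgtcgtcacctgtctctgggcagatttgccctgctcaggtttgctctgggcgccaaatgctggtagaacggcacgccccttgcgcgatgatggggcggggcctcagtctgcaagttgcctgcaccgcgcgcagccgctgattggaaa
Psmb5: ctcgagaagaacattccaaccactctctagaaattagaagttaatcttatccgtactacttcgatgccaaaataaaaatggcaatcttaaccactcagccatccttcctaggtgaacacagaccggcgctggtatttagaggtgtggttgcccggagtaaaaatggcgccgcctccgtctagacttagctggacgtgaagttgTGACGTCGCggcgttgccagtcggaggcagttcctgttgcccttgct
Psmb6: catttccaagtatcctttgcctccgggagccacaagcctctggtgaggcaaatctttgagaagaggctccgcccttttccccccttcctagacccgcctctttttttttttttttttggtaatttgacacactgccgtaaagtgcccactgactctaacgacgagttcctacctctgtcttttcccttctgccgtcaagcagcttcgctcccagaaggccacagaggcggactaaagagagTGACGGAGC
Both strands of all 27025 promoters in the table were searched. TTCNNNGAA occurred in 8.13% of them and in 2 of the 41 members (Psmb8 and Psmg1). TGACNNNGC occurred in 11.5% of all promoters and in 5 members (Psmb5, Psmb6, Psmc6, Psmd12 and Psmd9). The core of the interferon-stimulated response element, searched as GAAA, any 2 bases and GAAA again, occurred in 3.46% of all and in 3 members (Psmb3, Psmd4 and Psmd9). A match describes the letters in this window and no binding of a factor.

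Libraries held 58750 to 1738555 counts in experiment 1, where only naive replicate 1 fell under 200000, and 587118 to 3359875 counts in experiment 2. The members took 0.403 to 0.855% of the counts of a library in experiment 1 and 0.751 to 1.70% in experiment 2. Of 6 markers of the CD4 T cell all were detected in every group, except that Cd2 was at 0 in mature cells and at no more than 1.41 CPM (group mean) elsewhere in experiment 1. In experiment 2 the summed level of B cell markers stayed at or under 14.9 CPM, all 5 red cell and platelet markers were at 0 in every group, and the CD8 sum of 13.1 to 96.2 CPM was nearly all Cd8b1. In experiment 1 the unactivated libraries carried more of such transcripts: the B cell sum was 745 to 1296 CPM in naive and 458 to 489 CPM in mature cells against 5.33 to 16.3 CPM after activation. The myeloid sum was 1692 to 2572, 852 to 943 and 142 to 307 CPM in the same order.

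The low-count filter left 47 members for testing in experiment 2 and 43 in experiment 1. The untested ones with at least 10 counts were Psma8 (a testis subunit, 12 counts in all) and Psmd9 in experiment 2, and Psmb5 (38 counts) and Psma4 (98 counts) in experiment 1. Differences below are log2 differences ± SE from edgeR's quasi-likelihood test, and a gene is said to rise, fall or be called higher or lower where the Benjamini-Hochberg adjusted p over all genes tested was under 0.05.

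In the first 18 h of activation nearly the whole proteasome rose while its immune catalytic subunits fell. Against naive cells, with both concentrations averaged, 42 of 47 members were called higher and 4 lower, where 65.9% of all genes tested were called (32.3% higher and 33.6% lower). The 4 that fell were Psmb8, Psmb9, Psmb10 and Psme2b, and the only member that did not pass was Psmf1, a proteasome inhibitor (0.52 ± 0.42). All 31 tested core subunits outside the immune set rose, with a median difference of 1.51 (range 0.35 to 2.55, median of all genes 0). A level is a share of the library and gives no amount of RNA per cell. What lies behind a lower level, such as fewer cells of a kind or less RNA per cell, cannot be told apart in bulk samples.

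Psmb9 showed the largest fall. It stood at 435, 412 and 466 CPM in the naive libraries, at 114, 89.5 and 63.2 CPM in the high and at 59.2, 67.9 and 85.6 CPM in the low cultures at 18 h. Every activated library was thus far under every naive one, and the difference was -2.48 ± 0.14 (5.59-fold lower, adjusted p = 4.8e-21). Psmb10 went from 468, 664 and 609 CPM to 153, 199 and 168 CPM (high) and 155, 158 and 112 CPM (low), a difference of -1.88 ± 0.12 (adjusted p = 4.9e-19). Psmb8 went from 1039, 1303 and 1288 CPM to 516, 582 and 528 CPM (high) and 444, 495 and 426 CPM (low), a difference of -1.28 ± 0.099 (2.44-fold lower, adjusted p = 2.2e-16). In all 3 genes the naive and 18 h libraries were apart.

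Their constitutive counterparts moved the other way over the same hours. Psmb7, the trypsin-like subunit, was at 48.6, 57.2 and 70.7 CPM in naive cells and at 192, 216 and 180.4 CPM (high) and 167, 195 and 193 CPM (low) at 18 h, a rise of 1.68 ± 0.15 (adjusted p = 7.1e-14). Psmb5, the chymotrypsin-like subunit, rose by 1.34 ± 0.20 from 91.8, 54.1 and 91.9 CPM to between 157 and 249.8 CPM. Psmb6, the caspase-like subunit, rose by 1.06 ± 0.12 from 370.3, 348 and 349 CPM to between 613 and 853 CPM. For each of the 3 pairs, then, the immune gene fell and its counterpart rose.

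The other subunit classes rose as whole classes. The 7 alpha ring genes had the largest class median, 2.07, led by Psma6 (2.55 ± 0.21, 5.87-fold). The 4 structural beta genes rose by a median of 1.42, the 6 ATPases by 1.48 and the 11 non-ATPase cap genes by 1.46, the last led by the scaffold subunit Psmd1 (2.28 ± 0.13, adjusted p = 1.2e-21). All 6 tested assembly chaperones rose, with a median of 0.93. Psme3, which forms the nuclear activator PA28 gamma, rose by 2.15 ± 0.16. The cytoplasmic activator genes of the immune set did not follow Psmb8 to Psmb10. Psme1 was at 1008, 1091 and 960.0 CPM in naive cells and at 1244 to 1327 CPM at 18 h (0.33 ± 0.12, adjusted p = 0.014), and Psme2 rose by 0.32 ± 0.11 (adjusted p = 0.0081) with overlapping groups. Both calls were small and each was lost without 1 naive library: Psme1 without replicate 3 (0.29, adjusted p = 0.067) and Psme2 without replicate 1 (0.27, adjusted p = 0.052).

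**Figure D1:**
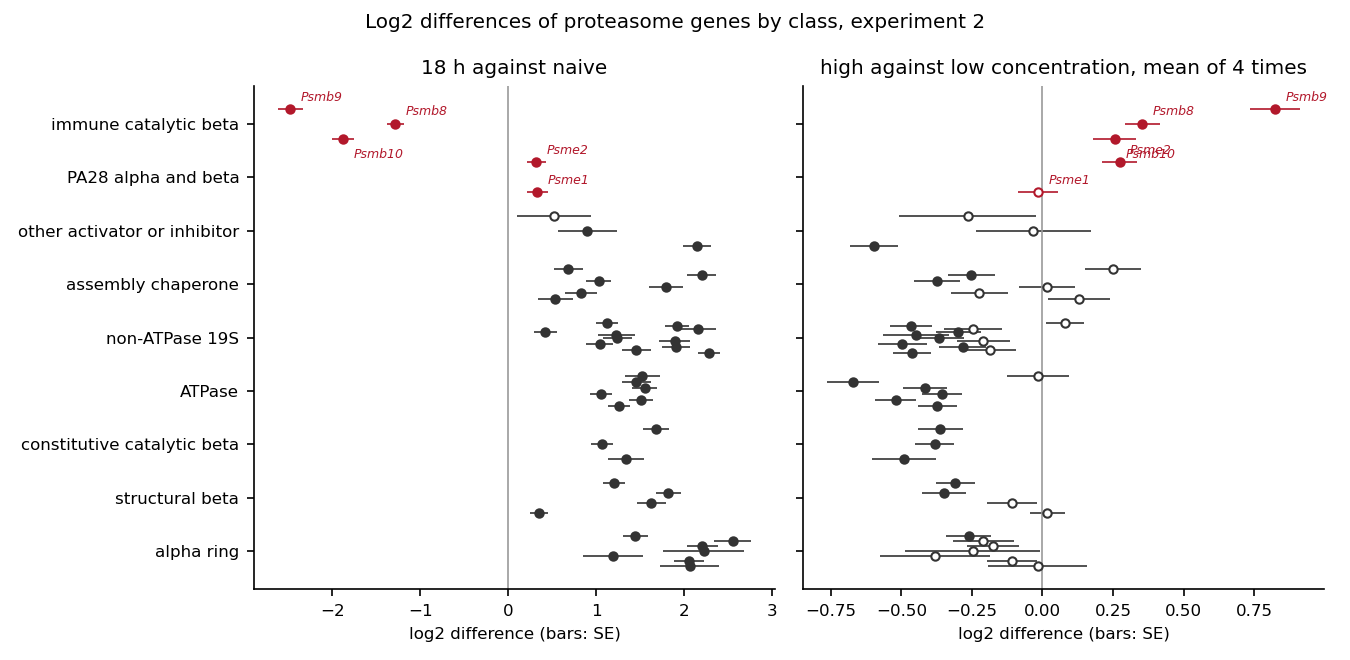
Log2 differences ± SE of the tested members in experiment 2, grouped by class, for 18 h against naive (both concentrations averaged) and for high against low concentration (mean of times); filled points passed the test and open points did not. In both comparisons Psmb9 lies on the opposite side of 0 from most core subunits.

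A pair of lists of related genes was fixed by name and read beside the members, both chosen with earlier results of these data known. Of 21 tested partners of the proteasome and of ubiquitin supply, 11 were higher and 3 lower at 18 h, with a median of 0.57. These calls made up 66.7% of the partners, near the share of all genes called at this time. The deubiquitinase Uchl5 (2.32), the segregase Vcp (1.53) and the maturation factor Pomp (1.13) rose. Of 16 tested interferon regulators and class I presentation genes, 2 were higher and 13 lower (93.8% called), with a median of -1.79. The interferon regulatory factor Irf1 fell by 3.39 on the log2 scale (SE 0.19), and Tap1, the neighbour that shares its start region with Psmb9, was at -2.01. Irf8 went the other way, at 5.14.

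From 18 to 72 h the immune catalytic genes rose again, Psmb9 at each step, Psmb8 up to 48 h and Psmb10 up to 30 h, while of 31 core subunits 10 fell between 30 and 48 h and 21 between 48 and 72 h. Between 18 and 30 h, 12 of 47 members were called, 5 higher and 7 lower, where 24.6% of all genes were called (13.9% higher and 10.6% lower). Psmb9 (0.85 ± 0.13), Psmb8 (0.58 ± 0.084) and Psmb10 (0.44 ± 0.11) were among the 5 that rose. Psme2 (-0.42 ± 0.086), Psme1 (-0.25 ± 0.096) and Psmb5 (-0.45 ± 0.15) fell, and Psmb6 (0.09 ± 0.095) and Psmb7 (0.09 ± 0.11) did not pass. The alpha subunit Psma2 (0.43) and the cap subunit Psmd2 (0.37) completed the 5 that rose, but their calls were lost in 2 and 4 of 19 alternatives. The call of Psme1 was lost in 12 of 19 alternatives, among them the omission of any 1 of the 6 libraries of 18 h (-0.27 to -0.24). That of Psmb5 was lost in 6, without high replicate 2 or low replicate 2 or 3 of 18 h, without high replicate 1 or low replicate 3 of 30 h (-0.43 to -0.38) and with the second title number as a covariate. These times also differ in that number in every library, so its effect in a covariate fit is carried over from other groups by assumption. With it as a covariate 6 members passed (2 higher, 4 lower). In that fit 12.1% of all genes were called. Psmb10 (0.28, adjusted p = 0.227), Psme2 (-0.31, adjusted p = 0.092) and Psmb5 (-0.24, adjusted p = 0.556) were then among those no longer called.

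Between 30 and 48 h, 2 members rose and 17 fell, where 14.9% of all genes were called higher and 11.8% lower. The 2 that rose were Psmb8 (0.72 ± 0.083, adjusted p = 1.1e-09) and Psmb9 (0.57 ± 0.12). Psme3 (-0.96 ± 0.11) and Psma6 (-0.83 ± 0.15) fell most, and both PA28 genes of the immune set fell, Psme2 (-0.44 ± 0.086) and Psme1 (-0.32 ± 0.096). Without low replicate 1 of 48 h the call of Psme1 was lost (-0.25, adjusted p = 0.054). Psmb6 fell (-0.29 ± 0.095), a call lost without low replicate 3 of 30 h or high replicate 2 or 3 of 48 h (-0.26, -0.22 and -0.25). Psmb10 (0.22 ± 0.10), Psmb5 (-0.19 ± 0.15) and Psmb7 (-0.21 ± 0.11) did not pass. Between 48 and 72 h, 2 members rose, Psmb9 (0.73 ± 0.12) and Psme2b (0.54 ± 0.16), and 28 fell, where 16.6% of all genes were higher and 15.3% lower. Psme3 (-1.18 ± 0.13) and the cap subunits Psmd6 (-0.98 ± 0.16) and Psmd7 (-0.96 ± 0.11) fell most among subunits and activators. Of the 31 core subunits, 21 fell, and Psmb5, Psmb6 and Psmb7 were among them at -0.55, -0.57 and -0.54. The call of Psmb5 was lost without low replicate 2 of 72 h (-0.47, adjusted p = 0.079), and that of Psme2b without the same library (0.42, adjusted p = 0.099).

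By 72 h the members differed in how far they had returned. Averaged over both concentrations, 28 of 47 members were still higher than in naive cells and 4 lower, where 52.7% of all genes were called (27% higher and 25.7% lower), and the median of the core subunits was 0.74. Psmb8 was back near its naive level (0.10 ± 0.11, 95% interval -0.11 to 0.32, not past the threshold). Psmb9 was at -0.32 ± 0.14 (adjusted p = 0.053), not past the threshold but called lower in 5 of 15 alternatives. Psmb10 was not: it had 249, 300.3 and 246 CPM (high) and 281 and 270.2 CPM (low) against 468 to 664 CPM in naive cells, a difference of -1.10 ± 0.13 (adjusted p = 2.5e-10). Psme2 (-0.42 ± 0.11) and Psme1 (-0.38 ± 0.12) were also lower, the latter not without the low-count filter (-0.31, adjusted p = 0.054). The order of levels therefore differed between the immune genes: Psmb10 had its highest group mean in naive cells (580.3 CPM), Psmb8 in CD62L positive cells at 48 h (1711 CPM), Psmb9 in high cultures at 72 h (447 CPM), and Psme1 and Psme2 in high cultures at 18 h (1289 and 1086 CPM). For Psmb9 the top place is not set apart from naive cells, whose mean was 438 CPM with overlapping libraries. Psmb8, Psmb9 and Psmb10 all had their lowest group mean in low cultures at 18 h. Of the 42 other tested members, 28 were lowest in naive cells and 11 in high cultures at 72 h.

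**Figure D2:**
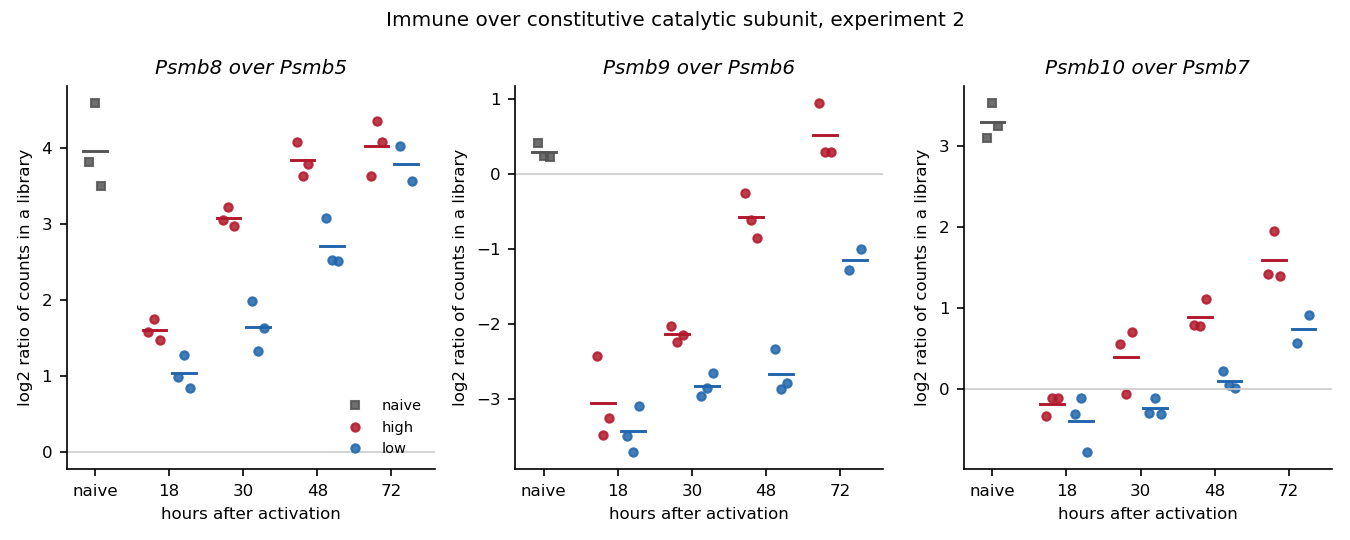
Log2 ratio of the counts of an immune catalytic gene to those of its constitutive counterpart, per library of experiment 2, by group; points are libraries. Within each concentration the mean ratios are lowest at 18 h, and only their change between groups is read because the genes may differ in how well their 3′ ends are captured.

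Ratios within a library put the exchange of catalytic genes on 1 scale. The log2 ratio of Psmb9 to Psmb6 averaged 0.30 in naive cells, -3.05 (high) and -3.43 (low) at 18 h, and 0.52 (high) and -1.14 (low) at 72 h. At 72 h the high cultures were thus above the naive mean and the low cultures under it, though these cultures also differ in the second title number. Between naive and 18 h the ratios of Psmb8 to Psmb5, Psmb9 to Psmb6 and Psmb10 to Psmb7 changed by -2.64 ± 0.35, -3.54 ± 0.19 and -3.59 ± 0.16. Each of these had an exact two-sided permutation p of 0.0119, the smallest this design allows, and 0.0179 after adjustment over the 18 ratio tests. From 18 to 72 h, permuted within concentration, the same ratios rose by 2.59 ± 0.17, 2.93 ± 0.22 and 1.46 ± 0.16 (exact p = 0.005 each, the smallest possible, adjusted 0.01). The ratio of Psmb10 to Psmb7 was under its naive mean of 3.30 in both cultures at 72 h, at 1.59 in high and 0.74 in low ones.

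The concentration of the culture was compared at each time in experiment 2. Psmb9 was higher in high cultures from 30 h on and Psmb8 at 30 and 48 h, while Psmb6, Psmb7 and many cap subunits were lower from 48 h. At 18 h no member of 47 passed edgeR's test, where 1.87% of all genes did. At an unadjusted p under 0.05 there were 4, all higher, DESeq2 called 0, and a fit of the compared groups alone called 2. At 30 h, 4 members were higher and 3 lower, where 8.56% of all genes were called (4.63% higher and 3.93% lower). At 48 h and at 72 h it was 3 higher and 22 lower each time, where 25.9% and 26.5% of all genes were called (13.9% and 13% higher, 12% and 13.5% lower). Averaged over the 4 times, 5 were higher and 22 lower, where 10.5% of all genes were higher and 9.97% lower.

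Psmb9 led on the higher side. It stood at 176, 197 and 190.2 CPM in high against 112, 104 and 103 CPM in low cultures at 30 h, a difference of 0.82 ± 0.17. At 48 h it had 357, 362 and 315 against 161, 117 and 109 CPM, a difference of 1.42 ± 0.17 (2.67-fold, adjusted p = 1.8e-09). At 72 h it had 507, 406 and 427 against 297 and 252 CPM (0.70 ± 0.18, adjusted p = 0.0029). From 30 h on, every high library was thus above every low one. At 72 h the call was lost without low replicate 2 (0.58, adjusted p = 0.09), and with the second title number as a covariate the 4 differences were 0.36, 0.82, 1.22 and 1.02.

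Psmb8 was higher at 30 h, at 912, 999 and 882 against 615, 593 and 567 CPM (0.65 ± 0.12), and at 48 h, at 1592, 1462 and 1343 against 947, 1049 and 1055 CPM (0.53 ± 0.12). At 72 h its groups overlapped, and the difference was -0.02 ± 0.13 (95% interval -0.29 to 0.25). Psmb10 was higher at 30 h alone among the single times (0.56 ± 0.15), from 242, 279 and 254 against 192, 163 and 173 CPM, and on the mean of times at 0.26 ± 0.076. The activator subunits parted. Psme2 was higher at 30 h (0.42 ± 0.12), a call lost without high replicate 1 or 3 or low replicate 1 or 2 (0.41, 0.38, 0.41 and 0.41). It was also higher at 72 h, at 762, 704 and 708 against 479 and 526 CPM (0.53 ± 0.14), and on the mean of times (0.27 ± 0.063). At 72 h this call was lost without low replicate 1 (0.45, adjusted p = 0.088) and with the second number as a covariate (0.41, adjusted p = 0.066). Psme1 did not pass at any time and was at -0.01 on the mean of times.

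**Figure D3:**
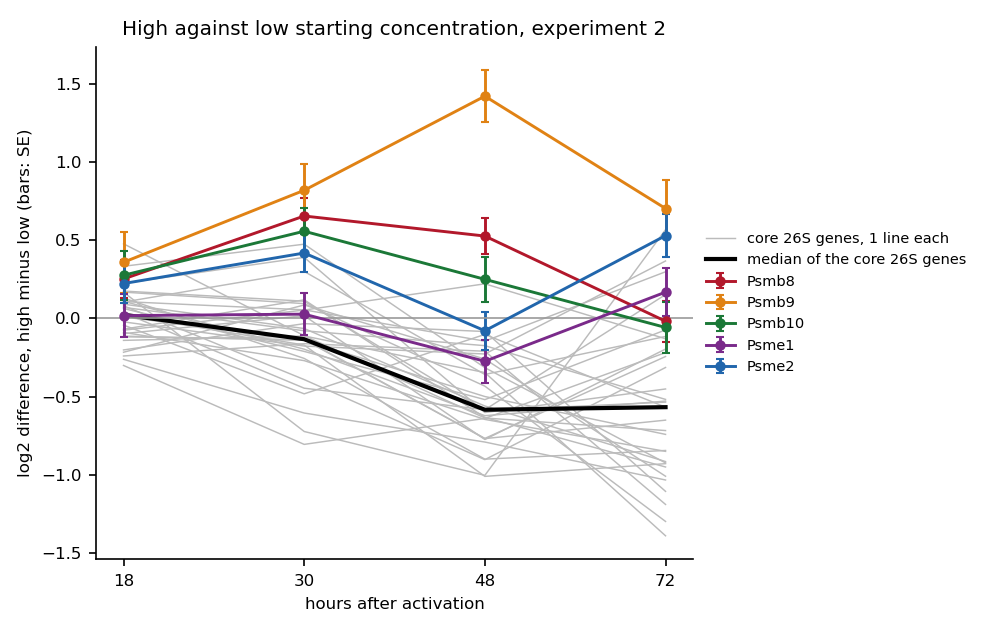
High minus low log2 difference by hours of activation in experiment 2 for Psmb8, Psmb9, Psmb10, Psme1 and Psme2 (coloured, bars ± SE), each core subunit outside the immune set (grey) and the median of the core subunits (black). The core median goes from 0.02 at 18 h to -0.57 at 72 h, and Psmb9 is above 0 at all 4 times.

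Of the constitutive catalytic genes, Psmb6 and Psmb7 were lower in high cultures from 48 h. At 72 h Psmb5 did not pass (-0.22 ± 0.26, adjusted p = 0.57). Psmb6 had 646, 431 and 482 CPM against 807, 809 and 794 CPM at 48 h (-0.63 ± 0.13) and 263, 329 and 346 against 591 and 614 CPM at 72 h (-0.95 ± 0.15, adjusted p = 3e-06). Psmb7 had 152, 143 and 139 against 209, 212 and 217 CPM at 48 h (-0.56 ± 0.15) and 92.3, 77.4 and 93.4 against 149 and 182 CPM at 72 h (-0.91 ± 0.18). High and low libraries did not overlap in these 4 contrasts. The difference between concentrations changed from 18 to 72 h by -0.88 ± 0.20 for Psmb6 (adjusted p = 0.0014) and by -1.01 ± 0.24 for Psmb7 (adjusted p = 0.0021). Psmb5 was lower on the mean of times (-0.49 ± 0.11, adjusted p = 0.0013), but its calls at 30 h (-0.80 ± 0.21) and 48 h (-0.64 ± 0.22) did not hold. The first was lost without high or low replicate 1 of 30 h (-0.73 and -0.59). The second was lost without high replicate 2 or low replicate 2 or 3 of 48 h (-0.54, -0.54 and -0.53), in a fit of the compared groups alone (-0.64, adjusted p = 0.065) and with the second number as a covariate (-0.48, adjusted p = 0.18).

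Many, but not all, of the core subunits were lower in high cultures from 48 h. Outside the immune set, none of the 31 was called higher at any time, and 0, 3, 18 and 18 were lower at 18, 30, 48 and 72 h. The medians were 0.02, -0.13, -0.58 and -0.57, where the medians over all genes were 0.01, -0.03, 0.04 and 0.01. At 30 h the count rests on single libraries: without high replicate 1 or low replicate 1 only 3 members passed, all of them higher. On the mean of times, 5 of 6 ATPases and 7 of 11 non-ATPase subunits of the regulatory cap were lower. In the barrel, Psmb5, Psmb6 and Psmb7 were lower, as were 2 of 4 structural beta genes and 1 of 7 alpha ring genes. The difference between these classes was not tested.

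Among single genes of the cap and its relatives, Psmc2, an ATPase, had 206, 277 and 275 CPM in high and 383, 554 and 593 CPM in low cultures at 48 h (-1.01 ± 0.14, adjusted p = 1.6e-07). Psmd13 had 135, 109 and 122 against 316 and 323 CPM at 72 h (-1.39 ± 0.19, adjusted p = 1.3e-07), Psmd2 had 56.3, 55.9 and 51.8 against 149 and 120.3 CPM (-1.30 ± 0.20), and Psmd3 was at -1.19 ± 0.25. In each of them the groups were apart. Psme3 had 72.2, 102 and 84.7 against 202, 189.9 and 195 CPM at 48 h, a difference of -1.17 ± 0.16 (adjusted p = 1.2e-07), and it was also lower at 72 h (-0.90 ± 0.20). Psme2b, the near copy of Psme2, was higher on the mean of times (0.56 ± 0.11).

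The second title number is unevenly spread over the concentrations at 48 h, where it is 2 in all high libraries and in 1 of 3 low ones, and fully so at 72 h. With the number as a covariate, 0, 8, 21 and 23 members passed at 18, 30, 48 and 72 h and 28 on the mean of times. Of all genes, 2.07%, 9.18%, 19.8%, 16.6% and 20.7% were called in the same fits. Of the members 18 were lower at 48 h and 20 at 72 h. Psmb6 and Psmb7 were then at -0.85 and -0.72 at 72 h, and Psmd13, Psmd2 and Psmd3 at -1.33, -1.30 and -0.83, all past the threshold. The effect of the number comes only from groups in which it varies: 48 h low, 48 h CD62L negative and both 72 h sorts. It is carried over to the 72 h cultures by assumption, so these calls do not separate the number from the concentration. From 18 to 72 h the high minus low difference of 17 members changed downwards and of none upwards, where 9.22% and 7.1% of all genes did. Psmd2 (-1.46), Psma2 (-1.26) and Psmd13 (-1.25) had the largest such changes among the subunits.

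The CD8 marker sum, nearly all Cd8b1, moved with the concentration. It was 68.0 to 96.2 CPM in high and 47.3 to 62.8 CPM in low cultures at 18 h, 37.5 to 63.5 against 30.0 to 35.4 CPM at 30 h and 31.8 to 37.9 against 14.2 to 15.6 CPM at 72 h, with overlap at 48 h. Cd8a stayed at or under 1.12 CPM in every library. The part of these markers in the differences of the members was not tested.

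Set against naive cells separately, a comparison chosen after seeing the data, the cultures ended in different places at 72 h. In high cultures 18 members were higher and 5 lower than in naive cells, where 43.5% of all genes were called, and the core median was 0.41. In low cultures 30 were higher and 5 lower, where 50.3% were called, and the core median was 0.97. Psmb6 was at -0.19 in high cultures, not past the threshold, and rose by 0.76 ± 0.15 in low ones. Psmb9 was at 0.03 in high cultures, not past the threshold, and fell by 0.67 ± 0.18 in low ones, a call lost without low replicate 2 (-0.56, adjusted p = 0.055). Psmb10 was lower in both (-1.13 ± 0.15 and -1.07 ± 0.16). Both comparisons share the naive libraries. The second title number is 1 in all naive and 72 h high libraries but 2 in the 72 h low ones. In the low comparison it therefore cannot be told apart from the culture. With it as a covariate, 18 members were higher and 5 lower in high cultures (44.0% of all genes called). In low cultures 26 were higher and 5 lower (41.6% called), with its effect again carried over by assumption.

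The ratio of each catalytic pair differed between concentrations. Over 12 high and 11 low libraries, permuted within time, the ratio of Psmb9 to Psmb6 was 2.30-fold higher in high cultures (log2 1.20 ± 0.13, exact two-sided p = 5e-05). That of Psmb8 to Psmb5 was 1.79-fold higher (0.84 ± 0.12, exact p = 0.00015) and that of Psmb10 to Psmb7 was 1.54-fold higher (0.62 ± 0.11, exact p = 0.0001). Each had an adjusted p of 0.0009, and for each all high libraries were above all low ones at 3 of the 4 times. These tests took no account of the second title number. It is unevenly spread over the concentrations at 48 h and cannot be told apart from them at 72 h.

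Of the proteasome partners, 9 of 21 were lower and none higher on the mean of times (median -0.26), among them the ubiquitin-activating enzyme Uba1 (-0.40) and Pomp (-0.29). Of the interferon and class I genes, 10 of 16 were higher and 1 lower (median 0.54). The called shares were 42.9% of the partners and 68.8% of these genes, to be read beside the shares of all genes given above. The class I heavy chain H2-K1 was at 0.69, and Irf1 was at 1.81 at 48 h. Irf8 was the lower one, at -1.81. Tap1 had 349, 289.8 and 275 CPM in high and 139, 138 and 135 CPM in low cultures at 48 h (1.15 ± 0.16), beside the 2.67-fold difference of Psmb9 across their shared start region.

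Cells sorted by CD62L from cultures of the intermediate concentration were compared next. In experiment 2 at 48 h, 2 members were higher in CD62L positive cells and 5 lower, where 14.5% of all genes were called (7.23% higher and 7.28% lower). The 2 were Psmb8, at 1675, 1732 and 1727 CPM in positive and 1018, 992 and 1153 CPM in negative cells (0.70 ± 0.12, adjusted p = 1.6e-05), and Psmb9, at 235, 245 and 279.9 against 116, 158 and 204 CPM (0.67 ± 0.16). In both the sorts were apart. Lower in positive cells were Psme3, at 97.8, 91.7 and 115 against 155, 183 and 175 CPM (-0.75), Psma5 (-0.73), Psmd11 (-0.66), Psma6 (-0.65) and Psmg3 (-0.51). Without negative replicate 2 or positive replicate 3 of 48 h, 4 members passed, 2 higher and 2 lower. At 48 h the second title number is 1 in all positive libraries and in negative replicate 1 only. With it as a covariate 5 members passed, 2 higher and 3 lower, where 9.14% of all genes were called.

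At 72 h the sorts were closer. In experiment 2, 1 member passed, where 1.53% of all genes did (0.682% higher and 0.844% lower): the cap subunit Psmd7 (-0.59), whose call was lost when any of negative replicates 2 and 3 and positive replicates 1, 2 and 3 was left out. Psmb8 had 1245, 1055 and 1070.2 against 1179.9, 1111 and 1213 CPM, and its difference between the sorts shrank from 48 to 72 h by -0.76 ± 0.17 (adjusted p = 0.0056). This was the 1 member whose difference changed, where 1.3% of all genes did (0.595% upwards and 0.704% downwards), and 2 passed without negative replicate 1 of 48 h. Psmb9 had 348, 317 and 324 against 274, 264 and 274 CPM (0.29 ± 0.16, adjusted p = 0.5), with every positive library above every negative one. On the mean of both times Psmb9 (0.48 ± 0.12) and Psmb8 (0.32 ± 0.082) were higher and 8 members lower, where 14.6% of all genes were called (7.23% higher and 7.33% lower). Psma5 was among the lower ones (-0.58 ± 0.13). The call of Psmb8 was lost without the low-count filter (0.29, adjusted p = 0.051). Without negative replicate 2 of 72 h 6 members passed, 2 higher and 4 lower.

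Experiment 1 repeated the sort in other libraries. At 48 h none of 43 members passed edgeR's test, where 6.51% of all genes did. At an unadjusted p under 0.05 there were 4 (2 higher, 2 lower), and DESeq2 called 1. At 72 h Psmb9 was higher and 6 members lower, where 19.5% of all genes were called. The call of Psmb9 at 72 h (0.36 ± 0.13) was lost in 10 of 13 alternatives, among them the omission of any 1 of the 6 libraries, so only its mean over times is used. Without positive replicate 2 of 72 h, 3 members passed, all lower.

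On the mean of times Psmb9 was the 1 member higher in CD62L positive cells of experiment 1 (0.35 ± 0.090, adjusted p = 0.0041), where 11.3% of all genes were higher. It had 374, 412 and 471 against 317, 341 and 333 CPM at 48 h and 603, 518 and 541 against 439, 389 and 473 CPM at 72 h, so that positive libraries were above negative ones at each time. Psme3 (-0.44 ± 0.11), the chaperone Psmg3 (-0.39), Psmd7 (-0.36 ± 0.091) and Psmb4 (-0.32 ± 0.10) were lower, where 10.1% of all genes were. The call of Psmb4 was lost without positive replicate 1 of 48 h or negative replicate 3 of 72 h (-0.29 and -0.26). Psme3 had 268, 282 and 294 against 407, 376 and 306 CPM at 48 h and 160.4, 118 and 127 against 166, 206 and 207 CPM at 72 h. Markers moved with this sort too. In experiment 1 the CD8 sum was 31.8 to 53.6 CPM in positive and 13.1 to 17.1 CPM in negative cells at 72 h, and 24.5 to 36.9 against 11.5 to 24.4 CPM at 48 h. The myeloid sum was 289 to 307 against 196 to 256 CPM at 72 h, with overlap at 48 h. In experiment 2 the CD8 sum was 25.3 to 29.4 against 13.1 to 20.3 CPM at 72 h. The part of these markers in the differences was not tested. Psmb8 did not pass in experiment 1 (0.07 ± 0.096, 95% interval -0.13 to 0.28), with 1925, 1488 and 2264 against 1792, 1748 and 1861 CPM at 48 h.

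**Figure D4:**
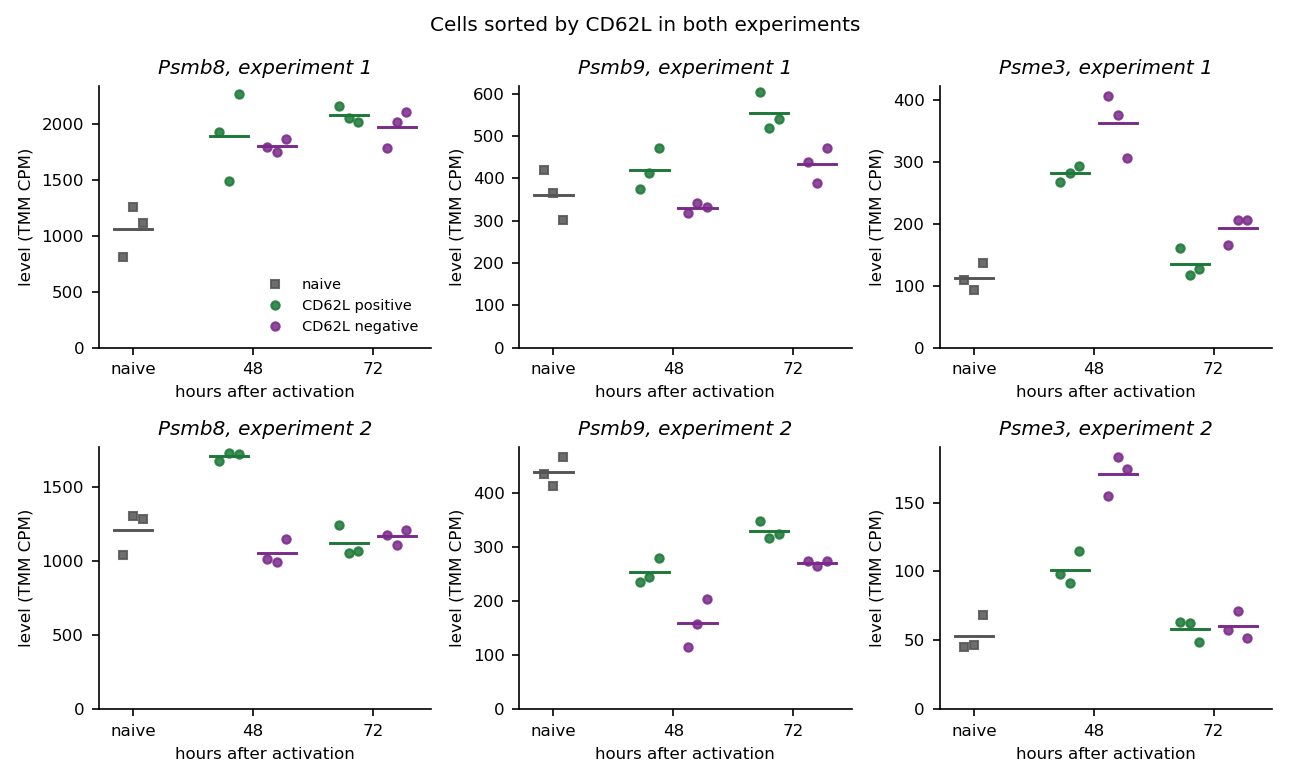
TMM CPM of Psmb8, Psmb9 and Psme3 in each library of naive cells and of CD62L positive and negative cells at 48 and 72 h, with experiment 1 in the upper row and experiment 2 in the lower row, which were normalised separately. Psmb9 is higher in every positive than in every negative library at both times and in both experiments.

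The ratio of Psmb9 to Psmb6 was higher in CD62L positive cells by 0.72 ± 0.14 in experiment 2 and by 0.71 ± 0.097 in experiment 1, each with an exact two-sided permutation p of 0.005, the smallest these designs allow, and an adjusted p of 0.01. The ratio of Psmb10 to Psmb7 was higher by 0.24 ± 0.083 in experiment 2 (adjusted p = 0.01). That of Psmb8 to Psmb5 was at 0.20 ± 0.16 there, which did not pass (adjusted p = 0.288). In experiment 1 the latter cannot be read, since Psmb5 had 0 to 5 counts per library. Of the interferon and class I genes, 5 of 16 were higher and 1 lower in positive cells of experiment 2 (median 0.16), and 12 of 17 were higher and 2 lower in experiment 1 (median 0.53). Irf1 was at 0.69 in experiment 1. Of the proteasome partners, 1 was higher and 3 lower of 21 in experiment 2, and 0 higher and 5 lower of 22 in experiment 1. These calls made up 19% and 22.7% of the partners, near the shares of all genes called on the mean of times. For the interferon and class I genes the called shares were 37.5% and 82.4%.

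Activation in experiment 1 was read from 48 h against naive cells, with both sorts averaged. Of 43 members 32 were higher and 2 lower, where 62.1% of all genes were called (30.3% higher and 31.8% lower), and 20 of the 27 core subunits outside the immune set were higher (median 1.42). Psmb6 (1.74 ± 0.35), Psme3 (1.46 ± 0.19) and Psmb7 (0.91 ± 0.29) rose. Psmb8 rose as well, from 807, 1252 and 1109.9 CPM in naive cells to between 1488 and 2264 CPM (0.76 ± 0.13, adjusted p = 7.4e-06), and Psme1 rose by 0.98 ± 0.17. Psmb9 did not pass (0.10 ± 0.14). Naive libraries of this experiment carry the B cell and myeloid transcripts given above, and their part in these differences was not tested.

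In experiment 2 the CD62L sorts of CD44+ cells at 48 h were compared with naive cells after seeing the data. They had 36 of 47 members higher and 6 lower, where 66.2% of all genes were called. The core median was 1.35. There Psmb8 did not pass (0.15, adjusted p = 0.19) and Psmb9 was lower (-1.12 ± 0.13), as were Psmb10 (-1.12 ± 0.12) and Psme2 (-0.49). Psmb9 thus stood at 0.10 in experiment 1 and -1.12 in experiment 2, and the difference between these values was not tested, since the tables were normalised separately. From 48 to 72 h in experiment 1, Psmb9 rose (0.40 ± 0.090) and 30 members fell, where 27.2% of all genes were higher and 25.3% lower. Of the 27 core subunits 23 fell (median -0.59), among them Psmb6 (-1.23 ± 0.16, adjusted p = 3.3e-08), and Psme3 fell too (-0.99 ± 0.11). Psmb7 (-0.59 ± 0.15) and Psme1 (-0.34 ± 0.11) fell as well, while Psmb8 (0.13 ± 0.096) and Psmb10 (-0.24 ± 0.25) did not pass.

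Mature and naive cells differed in few members. Of 43, Psmd14, the deubiquitinase of the cap, was higher in mature cells (0.91 ± 0.29), and Psmd4, a ubiquitin receptor (-1.01 ± 0.29), Psmd3 (-0.92 ± 0.20) and Psmd8 (-0.53 ± 0.17) were lower, where 16.4% of all genes were called (7.82% higher and 8.59% lower). Psmd3 had 159.6, 145 and 184 CPM in mature and 264, 318 and 317 CPM in naive cells, with no overlap. The call of Psmd3 was kept in every alternative run. Only 1 member passed without mature replicate 3 and 2 without naive replicate 3, all lower, so that the other 3 calls rest on single libraries. None of the immune genes passed: Psmb8 was at 0.23 ± 0.15, Psmb9 at 0.05 ± 0.16 and Psme1 at 0.26 ± 0.19. The myeloid, B cell and NK transcripts in these libraries (an NK sum of 114 to 149 CPM in mature cells) differ between the groups, and their part was not tested. CD62L negative cells at 72 h, compared with mature cells, had 23 members higher and 1 lower, where 48.7% of all genes were called, among them Psmb8 (0.62 ± 0.14) and Psmd7 (0.88 ± 0.15).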

How the data were processed

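The 56 libraries were 3′ end libraries made with poly-T primers that carry molecular identifiers, per the labels' protocols. The authors deposited 2 tables of raw counts per gene symbol. Per the submitters' processing notes, the build was mm9 and the tools were STAR 2.5.2b, HISAT 0.1.5, HTSeq 0.9.1, FastQC 0.11.7 and bcl2fastq 2.17.1.14. The aligner behind each table, the collapsing of identifiers, the annotation and the strand setting were not given in the sources used here. Libraries of a group differed by 1.28 to 15.0 times the counting variance (chi-square per degree of freedom). None was counted as a repeat of another, but this spread may be technical and cannot show that they are separate samples.

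Each table was fitted once over all genes with edgeR 4.0.16 under R 4.3.3, using a group-means design, TMM scaling, filterByExpr (minimum count 10) and the robust quasi-likelihood fit. This left 8961 genes and 12 residual degrees of freedom for experiment 1, and 9239 genes and 25 for experiment 2. Benjamini-Hochberg adjusted p-values under 0.05 were called. The SE is the log2 difference over the square root of F. Ratios of catalytic genes used log2 counts with a pseudocount of 0.5 and exact two-sided permutation tests within time, adjusted over 18 tests (Python 3.11.15, SciPy 1.17.1). The scripts were tested on simulated data. Alternatives were DESeq2 1.42.0, upper-quartile scaling, no filter, ribosomal protein genes left out, only the compared groups, the replicate number as a block, the second title number as a covariate, libraries under 200000 counts left out, a pseudocount of 5 and each library left out in turn.

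By rule, the 5 immune genes and their counterparts were to be named in each comparison (the shorter accounts print only some of them), and up to 4 rises and 4 falls among other passing members with a mean of at least 20 CPM in the main ones. Where a comparison had fewer than 8 calls, or a gene had been named elsewhere, others are named too, a choice made after seeing their values. The members, gene lists and comparisons were chosen with earlier results of these data known. Promoters came from RefSeq by symbol, since no genome of build mm9 was used here. Counts from near copies, including pseudogenes of Psmb5, Psmb6 and Psmb7, could be shared with the parent genes.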

Additional observations from a re-analysis of the deposited data

Results flagged for a closer look

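Between 48 and 72 h the difference of Psmb8 between CD62L positive and negative cells of experiment 2 changed by -0.76 on the log2 scale (edgeR's test of the change itself, adjusted p = 0.0056): it was 0.70 at 48 h and -0.06 at 72 h. The sorts of experiment 2 at 48 h are uneven in the second title number. In experiment 1 the same change of Psmb8 did not pass (0.005 ± 0.19). Between 18 and 72 h the high minus low difference of Psmb6 changed by -0.88 (adjusted p = 0.0014) and that of Psmb7 by -1.01 (adjusted p = 0.0021). At 18 h both had differences near 0 (-0.07 and 0.09). At 72 h the concentration cannot be told apart from the second title number, and with that number as a covariate the changes were -0.78 (adjusted p = 0.012) for Psmb6 and -0.81 (adjusted p = 0.03) for Psmb7.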

How the results depend on the processing

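Of 132 called results for named members, 94 kept their call under every alternative run and 38 lost it under at least 1. The CD62L comparison of experiment 1 at 48 h, with no call, had 1 (lower) under DESeq2, upper-quartile scaling, a fit of the compared groups only and without libraries under 200000 counts, and at 72 h its 7 calls became 3 in a fit of the compared groups only. The 0 calls of high against low at 18 h became 2 (higher) in that fit. The 12 calls of 30 h against 18 h became 6 with the second title number as a covariate, where Psma7 reversed to 0.038. A pseudocount of 5 turned the CD62L ratio of Psmb8 to Psmb5 in experiment 1 to -0.262 (adjusted p = 0.032), since Psmb5 has hardly any counts there, and brought that of Psmb10 to Psmb7 to 0.55 (adjusted p = 0.0208) from 0.51 (adjusted p = 0.0692). No scaling moved the median of all genes by over 0.1. The low depth of experiment 1 limits members with few counts.

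With each library left out in turn, calls ranged for experiment 1 from 0 to 1 (CD62L, 48 h), 3 to 9 (72 h), 0 to 1 (72 h minus 48 h) and 1 to 5 (mature against naive). For experiment 2 they ranged from 4 to 10 (CD62L, 48 h), 0 to 1 (72 h), 1 to 2 (72 h minus 48 h), 6 to 13 (mean) and 3 to 7 (high against low at 30 h). Ratios in experiment 1 between sorts ranged from 0.44 to 0.61 (Psmb10 to Psmb7) and 0.41 to 1.01 (Psmb8 to Psmb5). At 18 h against naive they ranged from -3.68 to -3.47 (Psmb10 to Psmb7), -2.88 to -2.33 (Psmb8 to Psmb5) and -3.70 to -3.45 (Psmb9 to Psmb6) and without any 1 naive library no ratio test of 18 h passed, since fewer assignments remain.

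Deviations of same-numbered libraries correlated with a median of -0.012 in experiment 1 and 0.0019 in experiment 2. Of these pairs 7 of 45 and 19 of 222 were over 0.1, against 12 of 90 and 37 of 444 pairs of other numbers. Whether same-numbered libraries share a mouse or culture is not stated, so pairing is not excluded. With the replicate block, 46 members passed for 18 h against naive and 27 for the mean of high against low, and no count of calls moved by over 1.5 times.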

Other observations

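Several members had few or no counts in experiment 1 and many in experiment 2. Psme2 had 0 counts, Psmc5 1, Psmb3 4 and Psma8 3 in all of experiment 1, while group means in experiment 2 reached 1086 CPM for Psme2, 530 CPM for Psmb3 and 244 CPM for Psmc5. Psmb10 stood at 1.92 to 23.8 CPM per library in experiment 1, and its group means in experiment 2 were 142 to 580.3 CPM. Psmd9, an assembly chaperone, went the other way, with group means up to 66.5 CPM in experiment 1 and up to 5.54 CPM in experiment 2. Psmb11, the subunit of thymic cortical cells, had 1 count in experiment 1 and 0 in experiment 2. The share of ribosomal protein genes was 0.646 to 1.18% per library in the first table and 21.1 to 37.8% in the second. The libraries and tables differ in more than the gene, so no level was compared between the experiments.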
